A study of Homo sapiens with 6 samples.

Results

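The YAP and TAZ pathway was followed in DU145 cells through 10 genes, and 10 of 10 were found by symbol among the 23062 identifiers listed for each library. They are YAP1, WWTR1 (the gene of TAZ), TEAD1 and 7 genes regarded as outputs of the pathway, CCN1 (formerly CYR61), CCN2 (formerly CTGF), ANKRD1, AMOTL2, CRIM1, LATS2 and AJUBA. They were taken by name, with no cutoff on their values, but with earlier results of these data known. DU145 is a human prostate cancer line that does not depend on androgen, grown here in MEM with serum and labelled WT. The control group is 3 samples kept in medium for 48 h. The TAX group is 3 samples given taraxasterol, a plant triterpene, for 48 h at its IC50. TAX was dissolved in DMSO, and whether control cultures received DMSO is not stated, so solvent and compound cannot be told apart. RNA was sequenced once per culture, and the study's methods say in general that experiments were done at least 3 times. Whether the 3 libraries of a group come from separate cultures or from such repeats is not stated. A p-value therefore measures only the spread between these libraries, which may be technical.

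YAP and TAZ are transcriptional coactivators without a DNA-binding domain, and they reach DNA mainly through the TEAD factors. When cells are crowded, rounded or deprived of growth signals, the Hippo kinases MST1, MST2, LATS1 and LATS2 phosphorylate YAP and TAZ, which then stay in the cytoplasm or are degraded. This control acts on protein, so mRNA of YAP1 and WWTR1 does not report it, and mRNA of output genes is the usual readout. In epithelial cancers the pathway is known for its ties to proliferation, adhesion and the actin cytoskeleton.

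Values are FPKM, fragments of a gene divided by its length and by library depth, so that levels can be compared between genes. FPKM is relative to the library, so a change in total RNA per cell is not seen. More RNA of a gene per cell cannot be told apart from a larger share of cells with that RNA. Keratins, EPCAM and CDH1, markers of an epithelial line, lay between 40.7 and 191 FPKM. Their sum was 567 to 733 FPKM in control libraries and 724 to 770 FPKM in TAX libraries. Fibroblast, leukocyte and endothelial markers were at or near 0, apart from COL1A1 with at most 2.08 FPKM, and the fibroblast sum was at least 1.94 FPKM in control libraries and at most 1.58 FPKM in TAX libraries. The part of these markers in the results was not tested. One library stood apart. The median log2(FPKM + 1) of tested genes was 3.28 in control replicate 3 and 3.44 to 3.46 in the other 5 libraries, and 58.0% of tested genes had their lowest value there. Each of the 10 genes is therefore given also without control replicate 3, as are several of the other genes.

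None of the 10 genes passed the test for a change after TAX treatment. In limma, over 12359 tested genes, 0 of 10 passed an adjusted p of 0.05 and 0 of 10 an unadjusted p of 0.05, where 0.477% and 10.1% of all tested genes did. The adjusted p of the 10 genes lay between 0.498 and 0.962. The differences were small as well as not called. In this fit the 95% intervals of the log2 fold change reached from -0.24 to 0.49 over the 10 genes. Each of the 10 thus lay inside a 1.5-fold change in either direction. With control replicate 1 left out AMOTL2 was at 0.30 (standard error 0.13), so this bound need not hold in every fit. On this scale, log2(FPKM + 1), 8 of the differences were above 0 and 2 below, with a median of 0.097 beside 0.054 for all tested genes. Without control replicate 3 the median was -0.011, beside 0.0055 for all genes. The TAX values lay wholly above the control values for 2 of the 10 genes, WWTR1 and AMOTL2, where 14.6% of all tested genes showed this and 17.9% showed no overlap in either direction.

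**Figure D1:**
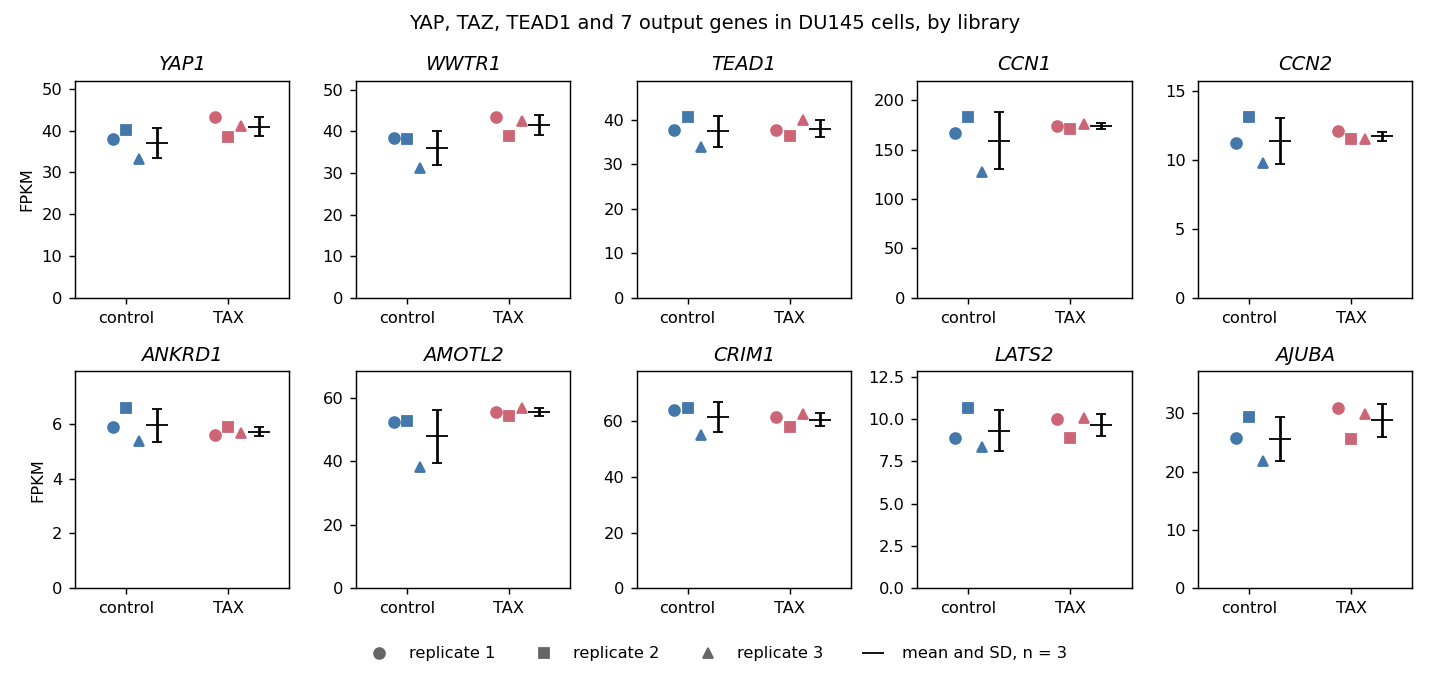
FPKM of each gene in the 3 control and 3 TAX libraries (vertical axes, each from 0), with symbols for the replicates and the mean and SD (n = 3) beside them. Control replicate 3, the blue triangle, is the lowest point of all 10 genes, and groups are separate only for WWTR1 and AMOTL2.

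The coactivators were present at similar levels. YAP1 lies on chromosome 11 from 102110461 to 102233423 (GENCODE 29, GRCh38). Control replicates 1 to 3 had 37.9, 40.2 and 33.2 FPKM, and TAX replicates 1 to 3, in that order as for all genes that follow, had 43.2, 38.6 and 41.2 FPKM. The TAX values were on the high side, but TAX replicate 2 lay below control replicate 2. The log2 fold change of YAP1 was 0.14 (standard error 0.092, limma adjusted p = 0.619), and without control replicate 3 it was 0.067. WWTR1, on chromosome 3 from 149517235 to 149736714, had 38.4, 38.3 and 31.2 FPKM in control and 43.4, 38.8 and 42.6 FPKM in TAX libraries. The lowest TAX value stood just above the highest control value. WWTR1 had the smallest p of the 10 genes (log2 fold change 0.21, standard error 0.098, limma adjusted p = 0.498), and the exact two-sided permutation test gave p = 0.1, the smallest that 3 libraries against 3 allow. With each library centred on its median, WWTR1 had a log2 fold change of 0.15 and an unadjusted limma p of 0.0481, and without control replicate 3 it had 0.11 and 0.132. YAP1 made up 49.7 to 51.5% of the summed FPKM of both genes in control libraries and 49.2 to 49.9% in TAX libraries, ranges that overlap. This share does not depend on how a library is scaled. Both genes, like CCN2 and CRIM1, share exon bases with an annotated gene on the opposite strand, and AMOTL2 and AJUBA with one on the same strand, so a part of their reads is of uncertain assignment.

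TEAD1, the DNA-binding partner among the 10, is encoded on chromosome 11 from 12674591 to 12944483. Its FPKM was 37.7, 40.5 and 33.8 in control and 37.7, 36.2 and 40.0 in TAX libraries, so the TAX values lay inside the control range. The log2 fold change was 0.026 (standard error 0.089, limma adjusted p = 0.933), and it was -0.042 without control replicate 3. Among the 4 TEAD genes TEAD1 was the most abundant, with 62.6 to 66.8% of their summed FPKM in control and 64.0 to 66.8% in TAX libraries. TEAD4 followed with 16.9 to 21.2% and 18.9 to 21.0%, TEAD2 with 8.64 to 10.2% and 8.43 to 9.29%. TEAD3 held 5.97 to 6.79% in control and 5.59 to 5.88% in TAX libraries, without overlap, but its own FPKM did not pass (log2 fold change -0.11, limma adjusted p = 0.669). Of the VGLL cofactors, which compete with YAP and TAZ for TEAD, VGLL4 was at 8.84 to 12.8 FPKM over the 6 libraries, and VGLL1, VGLL2 and VGLL3 were listed at 0 in all of them.

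CCN1 and CCN2, secreted matricellular proteins, are the targets most often used to read YAP and TAZ. CCN1, on chromosome 1 from 85580761 to 85583962, was the most abundant of the 10 genes. It had 167, 183 and 128 FPKM in control and 174, 170 and 176 FPKM in TAX libraries. The TAX libraries were close to each other and fell between control replicates 1 and 2, which left control replicate 3 alone at the bottom. The log2 fold change of CCN1 was 0.14 (standard error 0.12, limma adjusted p = 0.710), and -0.0090 without control replicate 3. CCN2, on chromosome 6 from 131948176 to 131951373, had 11.2, 13.1 and 9.82 FPKM in control and 12.1, 11.6 and 11.5 FPKM in TAX libraries. All 3 TAX values lay within the control range. Its log2 fold change was 0.050 (standard error 0.10, 95% interval -0.17 to 0.27, limma adjusted p = 0.880), or -0.043 without control replicate 3.

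ANKRD1, a muscle ankyrin repeat protein that YAP and TAZ also induce in epithelial cells, is on chromosome 10 from 90912096 to 90921276. It was the least abundant of the 10 genes, with 5.87, 6.59 and 5.36 FPKM in control and 5.58, 5.88 and 5.68 FPKM in TAX libraries. Here too the TAX values lay inside the control range, and the log2 fold change was -0.044 (standard error 0.087, limma adjusted p = 0.877), or -0.10 without control replicate 3. CRIM1, a transmembrane protein that binds growth factors of the BMP family, lies on chromosome 2 from 36355926 to 36551135. Its FPKM was 64.1, 64.8 and 55.1 in control and 61.4, 57.8 and 62.4 in TAX libraries. The control mean of 61.3 ± 5.38 FPKM and the TAX mean of 60.5 ± 2.43 FPKM (SD, n = 3 each) differed by less than the spread between replicates (log2 fold change -0.016, limma adjusted p = 0.962), and without control replicate 3 the log2 fold change was -0.089.

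The regions before the start sites of CCN2 and ANKRD1 are shown because, of the windows found for the 10 genes, they hold more than 1 copy of the core letters that TEAD factors recognise. The motif searched was GGAATG on either strand (CATTCC on the other), within 250 bases before each RefSeq start on GRCh38.p14, and copies did not overlap. Windows were found for 7 of the 10 genes, and those of CCN1, TEAD1 and CRIM1 were not in the table. The motif was in 5 of 10 windows of these 7 genes, as against 11.9% of all 35116 windows, and 2 or more copies were in 2 of 10 against 0.928%. Most of these genes were picked as outputs of the pathway, and AMOTL2, WWTR1 and AJUBA count with 2 windows each. The shares therefore cannot show an excess over other genes. Both sequences read 5′ to 3′ on the minus strand, with the motif in capitals.
CCN2, chr6:131951373-131951622: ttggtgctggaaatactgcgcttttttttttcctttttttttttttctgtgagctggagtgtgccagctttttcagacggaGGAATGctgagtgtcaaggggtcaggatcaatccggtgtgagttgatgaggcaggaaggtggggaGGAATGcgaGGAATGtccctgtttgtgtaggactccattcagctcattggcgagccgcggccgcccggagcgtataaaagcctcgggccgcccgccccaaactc
ANKRD1, chr10:90921088-90921337: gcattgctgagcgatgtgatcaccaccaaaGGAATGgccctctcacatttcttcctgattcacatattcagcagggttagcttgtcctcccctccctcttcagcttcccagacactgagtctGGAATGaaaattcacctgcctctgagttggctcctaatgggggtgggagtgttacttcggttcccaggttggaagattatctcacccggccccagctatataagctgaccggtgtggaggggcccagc
In CCN2 the motif begins 169, 104 and 95 bases before the RefSeq start site, and in ANKRD1 220 and 128 bases before it. Single copies were found for YAP1, and for 1 of 2 windows each of AMOTL2 and AJUBA, while LATS2 and both windows of WWTR1 held none. RefSeq starts can differ from the GENCODE 29 gene positions given here. The ANKRD1 window lies partly inside the GENCODE gene, and the windows of AMOTL2 and AJUBA with the motif lie wholly inside theirs. A match is a run of letters and not a measured binding site. CCN2 and ANKRD1, with 3 copies and 2 copies, had log2 fold changes of 0.050 and -0.044, each within its standard error of 0.

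AMOTL2, LATS2 and AJUBA encode proteins that act back on YAP and TAZ. The angiomotin AMOTL2, which holds YAP at junctions and helps to activate LATS kinases, is on chromosome 3 from 134355874 to 134375479. It had 52.5, 52.6 and 38.3 FPKM in control and 55.5, 54.4 and 56.9 FPKM in TAX libraries. All TAX libraries were above all controls, and 2 of the controls were only slightly lower. The log2 fold change of AMOTL2 was 0.23 (standard error 0.12, limma adjusted p = 0.541, exact two-sided permutation p = 0.1), the largest of the 10. Without control replicate 3 it was 0.079 (limma adjusted p = 0.65). LATS2, a kinase of the Hippo cascade and itself a YAP target, is on chromosome 13 from 20973032 to 21061547. Its FPKM was 8.86, 10.7 and 8.36 in control and 10.0, 8.88 and 10.0 in TAX libraries, with TAX values inside the control range (log2 fold change 0.052, limma adjusted p = 0.868, and -0.013 on the log2 scale without control replicate 3). AJUBA, a LIM protein that restrains LATS kinases, is on chromosome 14 from 22971174 to 22982642. It had 25.7, 29.4 and 21.9 FPKM in control and 31.0, 25.5 and 29.9 FPKM in TAX libraries, and the groups overlapped (log2 fold change 0.17, standard error 0.11, limma adjusted p = 0.645). For AJUBA the log2 fold change was 0.059 without control replicate 3 and 0.27 without control replicate 2.

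**Figure D2:**
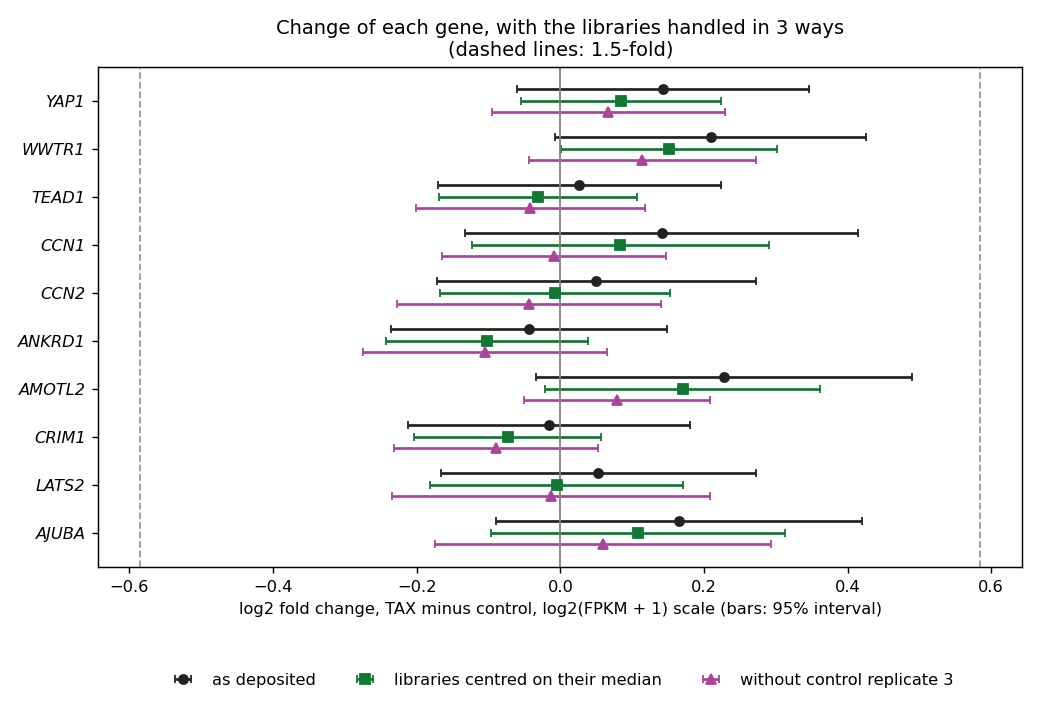
Log2 fold change of each gene (horizontal axis, TAX minus control on the log2(FPKM + 1) scale) with its 95% interval from limma, from the values as deposited, with libraries centred on their median and without control replicate 3. No interval reaches the dashed lines at 1.5-fold, and the points of all 10 genes lie further to the left once control replicate 3 is left out.

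The order of the 10 genes by FPKM was nearly the same in both groups. In control cells the means ran from 159 ± 28.4 FPKM for CCN1 through 61.3 ± 5.38 for CRIM1, 47.8 ± 8.24 for AMOTL2, 37.3 ± 3.39 for TEAD1, 37.1 ± 3.56 for YAP1 and 36.0 ± 4.08 for WWTR1 to 25.7 ± 3.79 for AJUBA, 11.4 ± 1.66 for CCN2, 9.29 ± 1.22 for LATS2 and 5.94 ± 0.617 for ANKRD1 (SD, n = 3 each). CCN1 stood above 98.0% of all tested genes and ANKRD1 above 35.7%. TEAD1, YAP1 and WWTR1 did not differ beyond their spread, and TEAD1 was above YAP1 in 2 of 6 libraries. The control ranges of AMOTL2 and TEAD1 overlapped, as did those of CCN2 and LATS2, although the first of each pair was higher in 6 of 6 libraries. In TAX-treated cells WWTR1 stood at rank 4 and TEAD1 at rank 6, the reverse of control cells, and the other ranks were the same.

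Among libraries of one group, most but not all of the 10 genes had their highest or lowest value in the same library. All 10 had their lowest value in control replicate 3, where their mean log2(FPKM + 1) was 4.72 against 4.94 to 5.06 in the other libraries. When libraries were centred on their medians, 6 of 10 still had their lowest value there, beside 17.6% of all tested genes. The deepest of these were AMOTL2 and CCN1, which stood 0.27 and 0.23 below their own mean on the log2 scale after centring. In the same library ANKRD1 was at 0.038 from its own mean, CRIM1 at -0.0019 and TEAD1 at -0.013. Within the control group, control replicate 2 was the highest library for 9 of 10 genes, all but WWTR1, beside 44.6% of all tested genes. For AMOTL2 and CRIM1 it was barely above control replicate 1 (52.6 against 52.5 and 64.8 against 64.1 FPKM). In the TAX group, replicate 2 was lowest for 8 of 10 genes, all but CCN2 and ANKRD1, beside 34.7% of all tested genes. For ANKRD1 it was the highest TAX library. The median SD of the 10 genes on the log2 scale was 0.17 in control and 0.064 in TAX libraries, and 0.093 and 0.061 after centring. For all tested genes the median SD as deposited was 0.12 and 0.075. What set control replicate 3 apart was not tested.

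**Figure D3:**
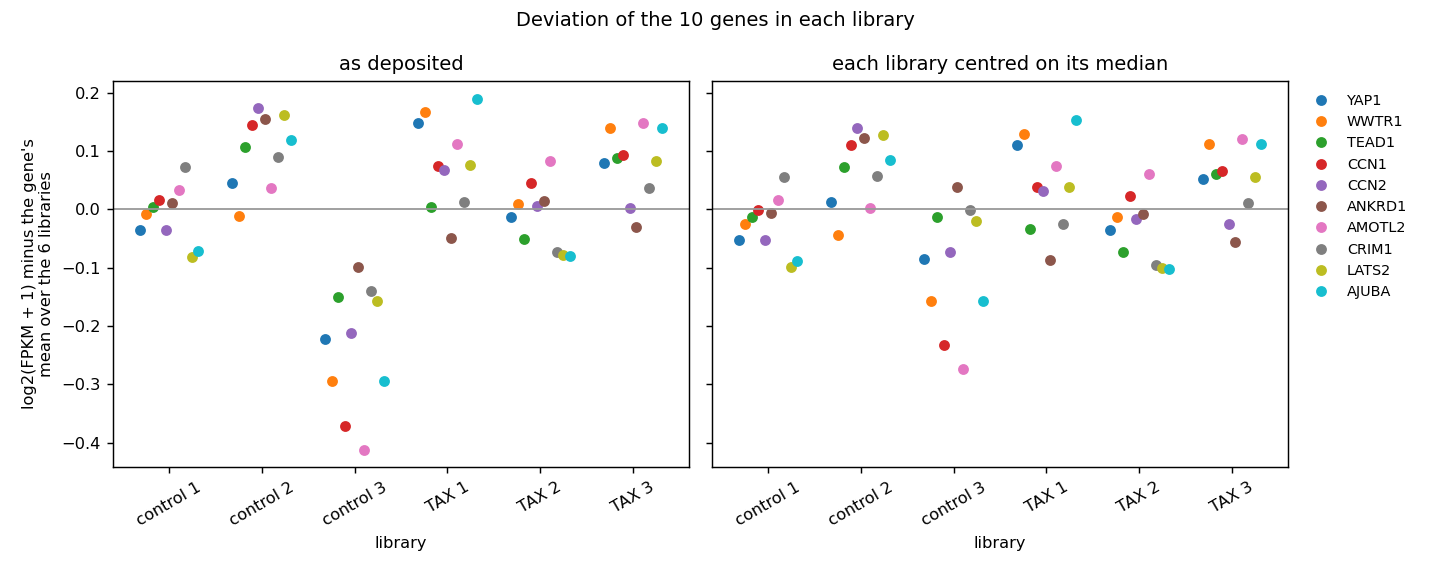
Log2(FPKM + 1) of the 10 genes in each library minus the gene's mean over the 6 libraries (vertical axis), as deposited on the left and with each library centred on its median on the right. All 10 points of control replicate 3 lie below 0 on the left, and AMOTL2 and CCN1 still lie 0.27 and 0.23 below it on the right.

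Genes whose values followed CCN1, CCN2 or YAP1 most closely were sought among 8400 genes with a symbol and a mean of at least 5 FPKM. Over the 6 libraries, Pearson's r with CCN1 was 0.999 for MCM3AP and 0.996 for ZNF574 and PLEKHM2. With CCN2 it was 0.996 for RXRA, 0.991 for KIF21A and 0.990 for MED21, and with YAP1 it was 0.998 for SPIRE1 and 0.996 for NARS1 and GABPB1. These values are a description of 6 points that share the scaling of each library, and an r of at least 0.9 was reached with CCN1 by 11.1% of the 8400 genes, with CCN2 by 4.69% and with YAP1 by 9.67%. None of the 9 closest genes was among the 10.

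Of the output genes, AMOTL2, AJUBA, LATS2, CCN1 and CCN2 were also set beside their paralogs, as a share of the family's summed FPKM within a library. These shares were computed after the values of the 10 genes had been seen. AMOTL2 held 89.8 to 91.7% of the angiomotin FPKM in control and 91.1 to 92.5% in TAX libraries, the rest being AMOT and AMOTL1. AJUBA held 81.3 to 82.4% and 81.6 to 84.1% beside LIMD1, with WTIP at no more than 0.204 FPKM. LATS2 held 56.2 to 58.7% of the LATS FPKM in control libraries and 55.9 to 56.1% in TAX libraries, which did not overlap but differed by 1.80 percentage points between the means. In the CCN family CCN1 held 90.1 to 90.6% in control and 91.1 to 91.9% in TAX libraries, again without overlap, although the FPKM of CCN1 overlapped. Shares within a family depend on each other, since a lower share of one paralog raises the others. How often shares show no overlap in other families was not computed. CCN2 held 6.50 ± 0.426% and 6.20 ± 0.174% (SD, n = 3 each), and these ranges overlapped. CCN5, a family member without the C-terminal domain of the others, held 2.40 to 2.76% and 1.27 to 1.95%. Its FPKM was 4.86, 5.58 and 3.40 in control and 3.72, 2.35 and 2.82 in TAX libraries, which overlapped. The log2 fold change was -0.50 (standard error 0.16, limma unadjusted p = 0.00978, adjusted p = 0.322). Of 4 other CCN genes 2 were tested, and 1, CCN5, passed an unadjusted p of 0.05, beside 10.1% of all tested genes. CCN5 also did so under each of 14 alternatives, and its log2 fold change was -0.66 without control replicate 3. CCN3 was at 0.764 to 1.46 FPKM, and CCN4 and CCN6 did not reach 0.1 FPKM.

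**Figure D4:**
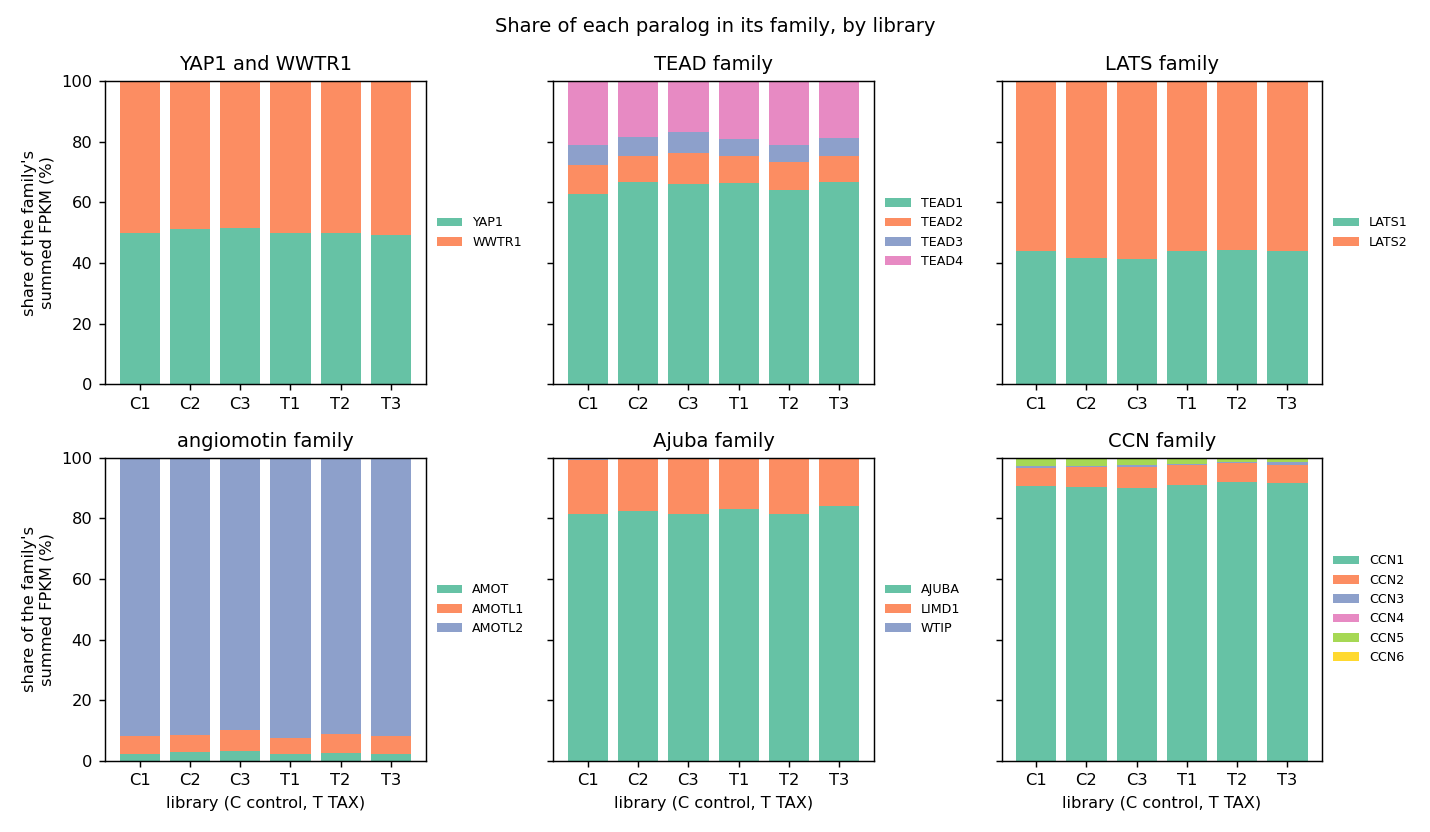
Share of each paralog in the summed FPKM of its family (vertical axis, percent) in the 6 libraries, C for control and T for TAX. Bars are nearly level across libraries, with TEAD1, AMOTL2, AJUBA and CCN1 as the main member of their families and YAP1 and WWTR1 close to equal.

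Around the 10 genes, 98 other genes in 8 lists were read from the same comparison, and 86 of them were expressed enough to be tested. Of these, 2 passed an adjusted p of 0.05, MAP4K4 and NT5E, and both were higher after TAX treatment. At an unadjusted p under 0.05, 14 were higher and 3 lower, where 7.73% of all tested genes were higher and 2.41% lower. In either direction 10.1% of all tested genes passed the unadjusted and 0.477% the adjusted threshold. The lists were chosen with earlier results of these data known, so their counts cannot show an excess over other genes. Their median log2 fold change was 0.092, beside 0.054 for all tested genes.

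MAP4K4, a kinase that can phosphorylate LATS1 and LATS2 in parallel to MST1 and MST2, had 40.1, 41.3 and 40.9 FPKM in control and 57.2, 58.8 and 57.9 FPKM in TAX libraries. The groups were far apart in relation to their spread, and control replicate 3 was not low. MAP4K4 rose by 0.50 on the log2 scale (standard error 0.073, limma adjusted p = 0.0218). In the fits with 5 libraries the log2 fold change was 0.49 to 0.51, and the adjusted p was above 0.05 without control replicate 1 (0.0720) and without TAX replicates 1, 2 or 3 (0.0928, 0.111 and 0.109). In the Hippo kinase list, 14 of 14 genes were tested, with a median of 0.089. Of these 1 passed the adjusted and 3 the unadjusted threshold, all 3 higher, beside 0.477% and 10.1% of all tested genes. The other 2 were FRMD6, which can activate the cascade (12.4 to 13.3 FPKM in control, 15.6 to 16.1 FPKM in TAX libraries), and NF2, the tumor suppressor merlin (9.99 to 11.8 and 12.3 to 13.9 FPKM). NF2 no longer passed the unadjusted threshold without control replicate 3, where its log2 fold change was 0.14. FRMD6 had a log2 fold change of 0.27, and of 0.24 with that library left out. The core kinases did not pass, STK4 with a log2 fold change of 0.13, STK3 with -0.051 and LATS1 with 0.14.

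NT5E, the ecto-5′-nucleotidase CD73 and a gene of YAP target signatures, had 76.5, 68.2 and 66.7 FPKM in control and 99.7, 99.3 and 103 FPKM in TAX libraries. The groups did not overlap, and NT5E rose by 0.51 on the log2 scale (standard error 0.084, limma adjusted p = 0.0301). Leaving out 1 library gave 0.47 to 0.57, and the adjusted p was above 0.05 without control replicates 2 or 3 (0.0827 and 0.0556) and without TAX replicates 1, 2 or 3 (0.120, 0.124 and 0.147). Of 24 other target genes in the list 21 were tested, with a median of 0.074. Of these 1 passed the adjusted threshold and 7 the unadjusted one, 6 higher and 1 lower. Over all tested genes 0.477% and 10.1% did. FJX1, a Golgi kinase-like secreted protein, had 7.14 to 8.18 FPKM in control and 9.75 to 11.3 FPKM in TAX libraries (log2 fold change 0.40, limma adjusted p = 0.105, and 0.37 on the log2 scale without control replicate 3). THBS1, a matricellular glycoprotein, had 11.6, 12.8 and 8.86 FPKM in control and 8.22, 7.81 and 8.47 FPKM in TAX libraries, without overlap. The log2 fold change was -0.38 (limma adjusted p = 0.280). Leaving out control replicate 3 made the log2 fold change of THBS1 larger, at -0.52 (limma adjusted p = 0.0506). GADD45A, a stress-induced growth arrest gene, had 20.8 to 38.0 FPKM and 32.8 to 43.1 FPKM, which overlapped (log2 fold change 0.51, limma adjusted p = 0.408). Without control replicate 3 it was 0.34 and GADD45A no longer passed the unadjusted threshold. IGFBP3, named here after its values were seen, had 48.6, 116 and 34.5 FPKM in control and 46.6, 28.2 and 42.3 FPKM in TAX libraries, with control replicate 2 far above the other 5 libraries (log2 fold change -0.59, limma adjusted p = 0.589).

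**Figure D5:**
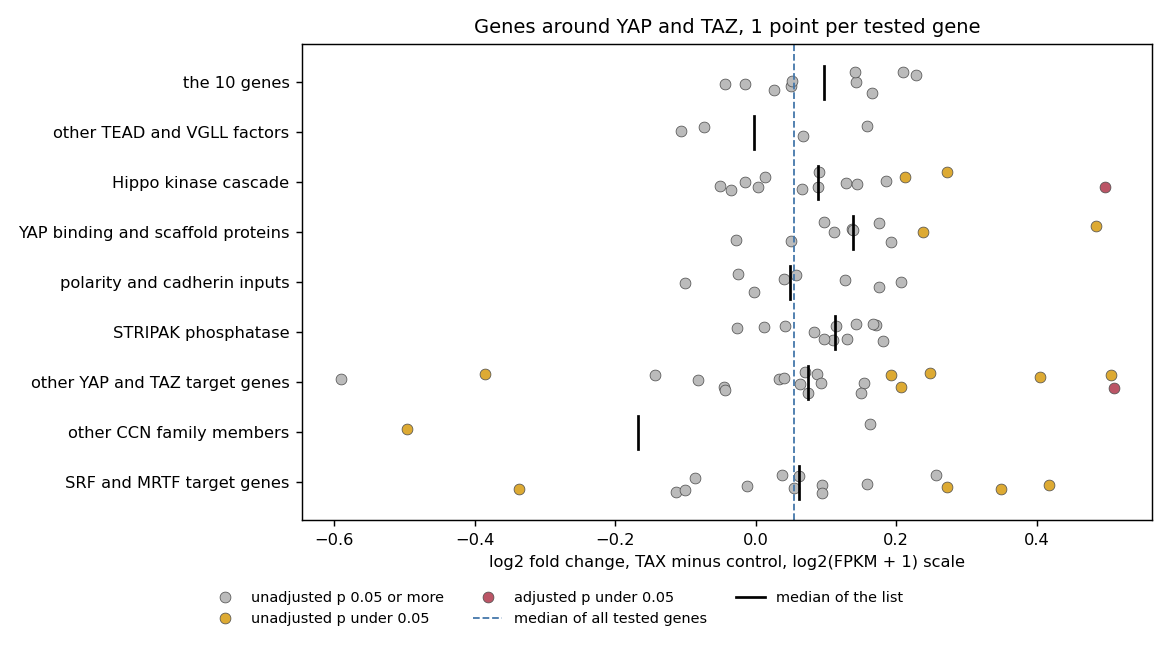
Log2 fold change of each tested gene (horizontal axis, TAX minus control on the log2(FPKM + 1) scale) in the 10 genes and in 8 other lists, with list medians as black lines and the median of all tested genes, 0.054, as a dashed line. All of the 10 genes are grey, and the red points are MAP4K4 and NT5E.

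Of the 10 tested genes for proteins that bind or anchor YAP, 0 passed the adjusted and 2 the unadjusted threshold. Both were higher, and 0.477% and 10.1% of all tested genes passed these thresholds. One of them was PTPN14, a phosphatase that binds YAP, which had 15.4 to 18.8 and 18.4 to 21.1 FPKM in control and TAX libraries, and these ranges overlapped. Without control replicate 3 the log2 fold change of PTPN14 was 0.18, against 0.24 with it, and PTPN14 no longer passed. Polarity and cadherin genes, 8 of 10 tested, and the STRIPAK phosphatase, 12 of 12 tested, had 0 genes at either threshold, with medians of 0.049 and 0.11. LLGL1 and STK26 had the smallest p in these 2 lists, with log2 fold changes of 0.18 and 0.18 and unadjusted limma p of 0.0961 and 0.0636. Without control replicate 3 the log2 fold changes were 0.075 for LLGL1 and 0.11 for STK26. In the list of TEAD and VGLL factors 4 of 7 were tested and 0 passed either threshold, with a median of -0.0028. SRF with its cofactors MRTF shares CCN1, CCN2 and ANKRD1 with YAP as targets, and 15 of 16 genes of its list were tested. In it 0 genes passed the adjusted threshold and 4 the unadjusted one, the latter beside 10.1% of all tested genes. FHL2, ZYX and ACTG1 were higher and CALD1 was lower, and the list median was 0.062. FHL2, a LIM protein of the cytoskeleton, had 16.1 to 23.0 FPKM in control and 24.7 to 28.6 FPKM in TAX libraries, and CALD1, which binds actin, had 9.54 to 11.6 and 7.29 to 9.54 FPKM. The log2 fold change of FHL2 was 0.42, and 0.29 without control replicate 3. For CALD1 it was -0.34, and -0.40 without that library. ZYX and ACTG1, a focal adhesion protein and a cytoplasmic actin, had log2 fold changes of 0.27 and 0.35 (limma adjusted p = 0.432 and 0.460). Without control replicate 3 these were 0.15 and 0.19, and ACTG1 no longer passed the unadjusted threshold.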

How the data were processed

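RNA of 3 control and 3 TAX-treated DU145 samples was sequenced. Each library came as a deposited list of genes with a value each, read as FPKM, a unit the labels do not state, since StringTie writes that unit and the sums differ between libraries (322483 to 363724). The submitters' processing notes name HISAT2 2.2.0, StringTie 2.1.2 and GRCh38, without role or order, and annotation, strand setting and filters are not given in the sources used here. YAP1, WWTR1, CCN2 and CRIM1 share exon bases with 1 annotated gene each on the opposite strand, and AMOTL2 and AJUBA with 1 each on the same strand, so their reads are of uncertain assignment there. Depth is unknown, since no counts were given and low values did not fall in steps (at most 5.72% of 332 log2 ratios in a bin of 0.1), so no counting interval can be given.

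The 12359 genes that reached 1 FPKM in 3 or more of the 6 libraries were compared as log2(FPKM + 1) with limma 3.58.1 in R 4.3.3 (trend, no covariate, Benjamini-Hochberg adjustment over all of them), a scale that understates changes of low genes. The fit was tested on simulated data. Single values were also compared by exact two-sided permutation tests. Alternatives were a pseudocount of 0.1, a filter at 0.1 FPKM or none, quantile normalization, median centring, no trend, a replicate block and leaving out each library. One alternative, centring without control replicate 3, was added after seeing the data. Promoter windows are from RefSeq (GRCh38.p14) and gene positions from GENCODE 29, matched by symbol or older symbol. The members and lists were chosen with earlier results of these data known. Named are all 10 members and their paralogs, and of each list the genes past an adjusted p of 0.05 and at most 4 with the smallest p, and the 3 genes most like CCN1, CCN2 and YAP1. STK3, STK4 and IGFBP3 were named outside this rule, as were markers. Some genes that the rule or the marker lists hold are not reported here.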

Additional observations from a re-analysis of the deposited data

How the results depend on the processing

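Under each of 14 alternatives 0 of the 10 genes passed an adjusted p of 0.05 (limma, smallest 0.349). At an unadjusted p, where 0 passed, WWTR1 alone passed with median centring (1 gene), and leaving out each library gave 0 to 3 genes, with 2 without control replicate 1 (WWTR1, AMOTL2), 3 without control replicate 2 (these and AJUBA) and 1 without TAX replicate 2 (WWTR1). The sign of a difference near 0 was not stable, with 19 of 140 values reversed. CCN2, LATS2 and TEAD1 became -0.013, -0.0017 and -0.050 with quantile normalization, -0.0079, -0.0053 and -0.031 with median centring and -0.047, -0.016 and -0.045 with centring and no control replicate 3, where CCN1 became -0.013. Leaving out each library gave log2 fold changes of -0.0090 to 0.25 for CCN1, -0.043 to 0.15 for CCN2, -0.013 to 0.15 for LATS2, -0.042 to 0.086 for TEAD1, -0.10 to 0.023 for ANKRD1 and -0.089 to 0.025 for CRIM1. Of the other pathway genes, 2 passed an adjusted p as reported, but 0 with no filter or with the replicate block, and 0 to 2 with a library left out. Their count at an unadjusted p, 17, was 10 to 22 with a library left out. Control and TAX libraries of the same replicate number had an r of deviations of -0.33 to -0.12. Libraries of unlike number were not compared, so this cannot show whether libraries were paired. The block left the median of the 10 genes at 0.097. MAP4K4 and NT5E, at 0.50 and 0.51 in these fits, had adjusted p of 0.0671 and 0.0713 with the block and 0.0777 and 0.121 with no filter. NT5E had 0.0586 with centring and no control replicate 3. The cause of these losses was not tested. GADD45A passed without control replicate 2 (0.76) and THBS1 with centring and no control replicate 3 (-0.53). No counts were given, so what depth limits cannot be stated.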
